A study of Mus musculus with 13 samples.

Results

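Acute-phase proteins are blood proteins whose production rises during inflammation, most of them made by the liver and several also by fat. The genes described here are 10 of them, read by symbol from 2 mouse RNA sequencing tables of 22609 genes each, one of visceral fat and one of transplanted tumours: the orosomucoids Orm1, Orm2 and Orm3, the serum amyloid A genes Saa1, Saa2 and Saa3, haptoglobin (Hp), lipocalin 2 (Lcn2) and the serine protease inhibitors Serpina3n and Serpina3b. They were chosen by name with the KO and WT values of these same fat libraries already known, so their fat values are given as a description without a test. The tumour libraries are other samples and were tested.

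The study sequenced messenger RNA from tissues of C57BL/6 mice. The KO groups came from hosts described as lacking PD-L1 in fat, and the WT groups from wild-type hosts. PD-L1, encoded by Cd274, sits on the cell surface and holds back T cells. Visceral fat, taken after high-fat diet (HFD) feeding in both groups, gave 4 KO and 3 WT libraries, and transplanted E0771 tumours, a mouse mammary cancer line, gave 3 KO-host and 3 WT-host libraries. The promoter or Cre that would remove PD-L1 from fat is not given in the sources used here, nor are age, sex or length of feeding. Whether every library is a separate animal is not stated, and p-values below measure the spread between libraries. WT fat libraries are named by their column number (1, 3 and 4), because these numbers do not match the replicate numbers of the labels.

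In textbook accounts, interleukin 6 acting through STAT3, interleukin 1 and tumour necrosis factor acting through NF-kB, and the C/EBP factors drive acute-phase genes in liver cells, with glucocorticoids adding to the response. In obese fat, adipocytes and macrophages make some of the same proteins. Orosomucoids are plasma carriers of lipids and drugs, haptoglobin binds free haemoglobin, serum amyloid A proteins ride on high-density lipoprotein, lipocalin 2 binds bacterial iron carriers, and the Serpina3 proteins inhibit serine proteases.

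The fat libraries held 29362788 to 34926445 gene reads in KO and 32373335 to 41534662 in WT, and the tumour libraries 22834259 to 34706555 with KO hosts and 29880752 to 31183735 with WT hosts. The targeted gene Cd274 had 521 to 564 normalised reads in fat labelled KO, inside the 504 to 739 of WT fat, with a log2 difference of -0.10 (SE 0.15, limma adjusted p = 0.66). Whole tissue cannot show whether adipocytes lost it, so KO stands for the label throughout. Over all 14455 fat genes tested, 16.8% were higher and 17.4% lower in KO at an adjusted p under 0.05 (limma, Benjamini-Hochberg). All 12 adipocyte markers were detected in every fat library.

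In fat, 4 of the 10 genes stood lower in every KO library than in any WT library. Orm3 and Serpina3b had few reads in KO, with means 34.9-fold and 23.7-fold below WT, while Orm1 was 4.07-fold and Serpina3n 2.20-fold lower. The other 6 genes, Hp, Saa3, Orm2, Lcn2, Saa1 and Saa2, had KO values that overlapped those of WT. Of the 10, 9 passed the filter on low values (10 normalised reads in at least 3 libraries), Orm3 through its WT libraries. Across all genes tested, 22.1% lay lower and 21.6% higher in KO without overlap, and nothing is read from the 4 of 10 against this share, since the genes were chosen on these values. Together the 10 genes took 0.200% to 0.502% of all gene reads in KO fat and 0.436% to 0.795% in WT fat. Whether there were fewer cells of a type or less RNA per cell cannot be told apart in whole tissue.

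**Figure D1:**
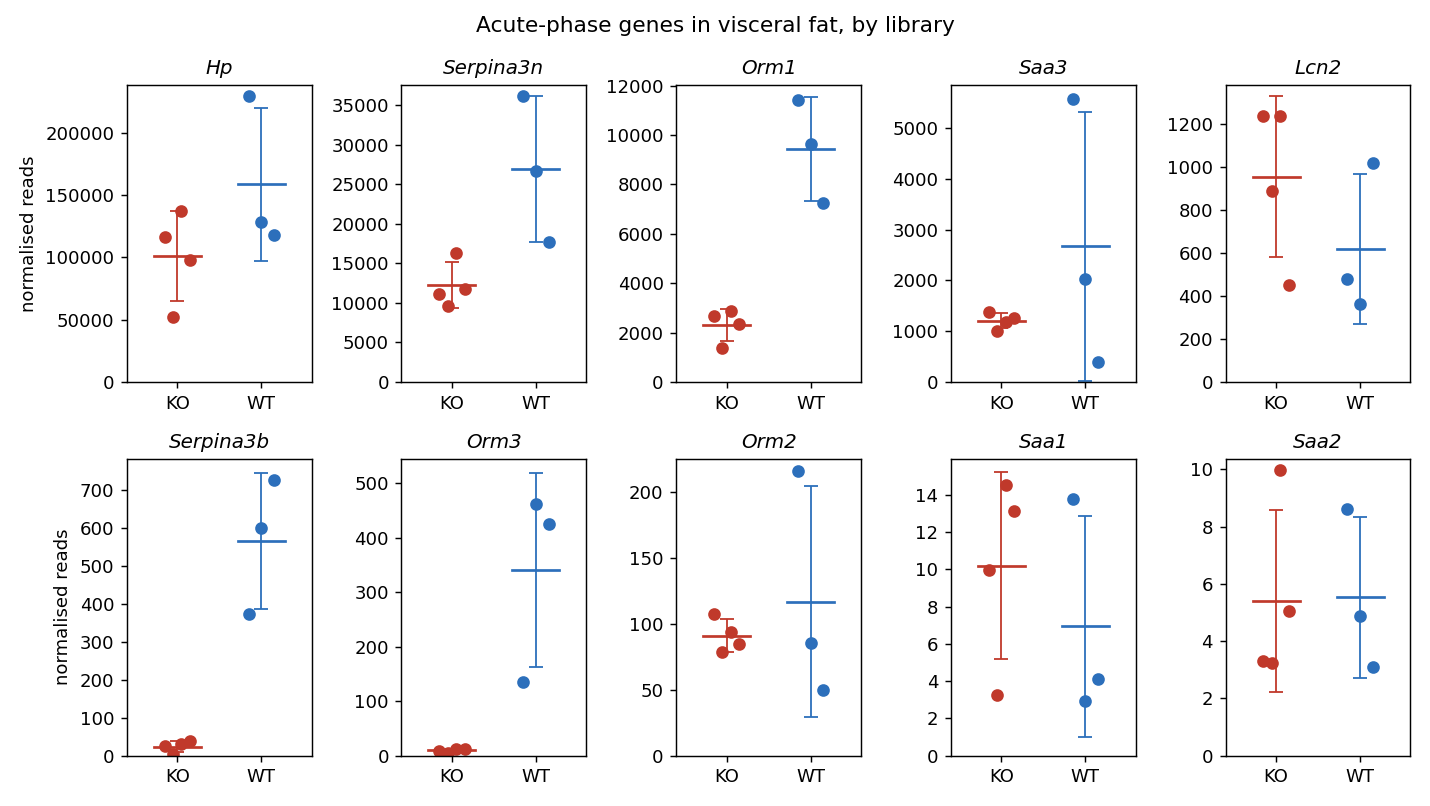
Normalised reads (reads divided by a size factor per library) of the 10 acute-phase genes in visceral fat, one panel a gene, each with its own axis from 0. Points are libraries, with KO (4) left of WT (3), horizontal lines are means and bars are SDs; Orm1, Orm3, Serpina3n and Serpina3b show no overlap between the groups.

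Their levels differed widely. Per kilobase of transcript, Hp ranked 9 of 20247 genes in KO fat and 6 in WT fat, with 75208 ± 26951 (SD, n = 4) against 117896 ± 45879.7 (SD, n = 3) normalised reads per kilobase. Serpina3n ranked 235 in KO and 92 in WT, Orm1 588 and 98, Saa3 878 and 323, and Lcn2 2039 and 3065. Orm3 ranked 11953 in KO and 4473 in WT, and Serpina3b 12050 in KO and 6092 in WT. Orm2, Saa1 and Saa2 ranked between 8019 and 12587 in both groups.

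The 3 orosomucoid genes lie side by side on the plus strand of chromosome 4 (GRCm38, GENCODE M21), Orm1 at 63344560 to 63348163, Orm3 at 63356162 to 63359511 and Orm2 at 63362449 to 63365878. They did not move alike. Orm1, the main orosomucoid of fat, had 2661, 1383, 2871 and 2344 normalised reads in the KO libraries, against 11417, 9617 and 7227 in WT columns 1, 3 and 4. The means were 2315 ± 658 in KO (SD, n = 4) and 9420 ± 2102 in WT (SD, n = 3), a log2 difference of -2.05 (SE 0.26). The highest KO library lay well below the lowest WT library.

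Orm3 had 8.83, 5.39, 12.7 and 12.1 normalised reads in KO fat, against 136, 462 and 425 in WT fat. Its means of 9.76 ± 3.37 in KO and 341 ± 178 in WT gave a log2 difference of -4.86 (SE 0.48) on the log2(value + 1) scale. Orm2, the nearest neighbour of Orm3, had 107, 78.8, 93.5 and 84.7 in KO fat, against 216, 85.1 and 49.5 in WT fat. The KO values of Orm2 lay within the WT range, with a log2 difference of -0.10 (SE 0.44) that became 0.47 without WT column 1.

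The make-up of the family therefore differed between the groups. Orm3 made up 0.318% to 0.495% of the reads of the 3 genes in KO fat and 1.15% to 5.52% in WT fat. Orm2 took 3.14% to 5.37% in KO fat and 0.643% to 1.83% in WT fat. Orm1 held the rest, 94.3% to 96.4% in KO and 93.8% to 97.0% in WT, so its share overlapped while its level did not.

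**Figure D2:**
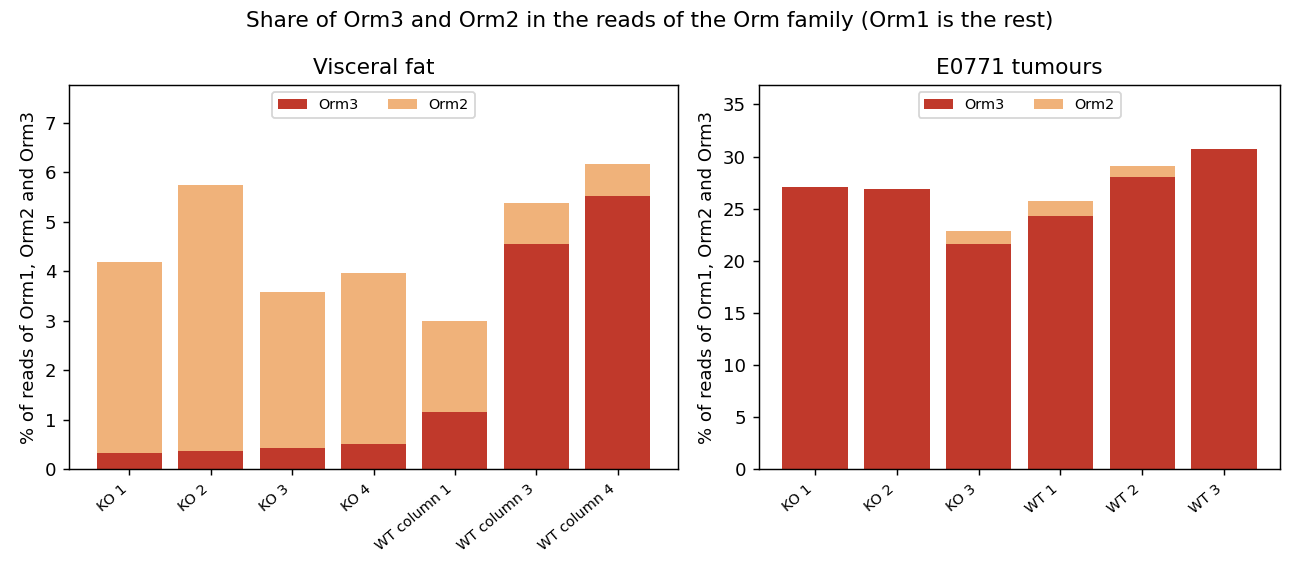
Percent of the reads of Orm1, Orm2 and Orm3 that belong to Orm3 (red) and Orm2 (orange) in each library, visceral fat on the left and E0771 tumours on the right, KO libraries left of WT libraries in each; the axes differ and Orm1 is the rest to 100%. In fat the Orm3 share is below 0.5% in all 4 KO libraries, while in tumours it is 21.6% to 27% with KO hosts and 24.3% to 30.7% with WT hosts.

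Orm1 and Orm2 are similar enough for reads to be assigned to the wrong copy. Their transcripts were 91.0% identical, and 20.4% of the 50-base stretches of Orm1 and 22.7% of those of Orm2 also occurred in another gene. For Orm3 this was 3.59%, so its reads were separable from those of Orm1 over most of its length. With 100-base stretches the shares were 6.95% for Orm1 and Orm2 and none of 674 for Orm3. The read length and the counting rule for such reads are not given in the sources used here.

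The 250 bases before the start sites of Orm3 and Orm2 (RefSeq, GRCm38.p6) are printed because these neighbours share 89.0% of their aligned upstream bases and yet differed in fat. Capitals mark matches to TTNNGNAA, a C/EBP-type motif, and to AGAACA, a hexamer of glucocorticoid receptor elements, on either strand. Orm3 covers chr4:63355908-63356157 and Orm2 chr4:63362199-63362448, both on the plus strand.
Orm3: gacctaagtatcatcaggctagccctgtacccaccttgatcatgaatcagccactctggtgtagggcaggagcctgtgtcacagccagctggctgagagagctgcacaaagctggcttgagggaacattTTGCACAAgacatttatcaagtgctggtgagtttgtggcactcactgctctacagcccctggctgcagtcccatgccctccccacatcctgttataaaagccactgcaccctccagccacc
Orm2: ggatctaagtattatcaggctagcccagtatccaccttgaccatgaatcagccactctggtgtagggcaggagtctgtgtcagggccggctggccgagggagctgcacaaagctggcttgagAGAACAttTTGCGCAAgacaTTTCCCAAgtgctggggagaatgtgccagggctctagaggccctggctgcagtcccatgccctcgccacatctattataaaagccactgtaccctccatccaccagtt
Orm3 had 1 match to the C/EBP-type motif, while Orm2 had 2 such matches and 1 match to AGAACA. These matches are letters in a window and do not show binding.

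The serum amyloid A genes lie on chromosome 7 (GRCm38), Saa3 at 46711998 to 46715700, Saa1 at 46740497 to 46742980 and Saa2 at 46751790 to 46754313. Saa3, the form that mouse fat and macrophages make, supplied 98% to 99.4% of their reads in KO fat and 98.2% to 99.6% in WT fat. Saa3 had 1373, 1011, 1181 and 1262 normalised reads in the KO libraries, against 5579, 2036 and 399 in WT columns 1, 3 and 4. The 4 KO libraries sat close together inside a WT range that spanned 14.0-fold. The log2 difference of Saa3 was -0.46 (SE 0.72), and it was 0.41 without WT column 1 and -1.49 without WT column 4. On the whole reads recovered from the values, edgeR gave -1.14 and DESeq2 -1.15.

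Saa1 and Saa2, the forms that the liver secretes into blood in inflammation, were close to the limit of detection. Saa1 had 3.24 to 14.5 normalised reads in KO fat and 2.93 to 13.8 in WT fat, and Saa2 had 3.24 to 9.99 in KO fat and 3.09 to 8.60 in WT fat. Both overlapped, and Saa2 did not reach the filter. Their transcripts are 94.4% identical, so reads may pass between them.

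The upstream stretch of Saa3, the only serum amyloid A gene with substantial reads in fat, is shown for its 4 matches to the C/EBP-type motif, again in capitals. It covers chr7:46715701-46715926 on the minus strand (RefSeq, GRCm38.p6), without 24 bases that the annotation gives as exon.
Saa3: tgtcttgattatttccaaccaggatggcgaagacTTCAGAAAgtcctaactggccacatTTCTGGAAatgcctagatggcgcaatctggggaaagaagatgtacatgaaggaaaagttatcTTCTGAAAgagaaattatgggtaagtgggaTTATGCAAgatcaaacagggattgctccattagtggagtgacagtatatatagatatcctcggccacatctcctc

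Hp (chromosome 8, 109575128 to 109579172, minus strand) had by far the most reads of the 10 genes. It had 116677, 52446, 137471 and 98027 normalised reads in KO fat, against 229564, 128349 and 117799 in WT fat. KO library 3 lay above WT columns 3 and 4, and KO library 1 just below them. The means were 101155 ± 36249.7 in KO and 158571 ± 61708 in WT, a log2 difference of -0.67 (SE 0.41), and no stretch of its transcript was shared with another gene.

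Lcn2 (chromosome 2, 32384633 to 32388252, minus strand) had the higher mean in KO. It had 1237, 887, 1237 and 448 normalised reads in KO fat, against 477, 361 and 1015 in WT fat. KO library 4 lay below WT columns 1 and 4, so the groups overlapped, with a log2 difference of 0.66 (SE 0.44).

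The 2 serpins are members of a tandem cluster on chromosome 12 (GRCm38, plus strand), Serpina3b at 104127996 to 104139545 and Serpina3n at 104406729 to 104414329. Serpina3n, which inhibits granzyme B and other serine proteases, had 11122, 9555, 16329 and 11786 normalised reads in KO fat, against 36217, 26700 and 17726 in WT fat. WT column 4 was only slightly above KO library 3, and the log2 difference was -1.11 (SE 0.27). Serpina3b had 24.3, 3.24, 30.0 and 38.3 in KO fat, against 373, 600 and 728 in WT fat. The groups were far apart, with means of 23.9 ± 15 in KO and 567 ± 179.5 in WT and a log2 difference of -4.85 (SE 0.71).

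Upstream stretches of both serpins are printed because they align at 75.3% identity while the genes differed in the size of their KO to WT difference. Capitals again mark TTNNGNAA and AGAACA. Serpina3b covers chr12:104127746-104127995 and Serpina3n chr12:104406458-104406707, both on the plus strand (RefSeq, GRCm38.p6).
Serpina3b: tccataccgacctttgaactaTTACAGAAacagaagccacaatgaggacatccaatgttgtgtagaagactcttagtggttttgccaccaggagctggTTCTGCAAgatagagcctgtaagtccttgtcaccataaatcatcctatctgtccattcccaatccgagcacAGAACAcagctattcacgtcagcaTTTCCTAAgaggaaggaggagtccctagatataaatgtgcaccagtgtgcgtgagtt
Serpina3n: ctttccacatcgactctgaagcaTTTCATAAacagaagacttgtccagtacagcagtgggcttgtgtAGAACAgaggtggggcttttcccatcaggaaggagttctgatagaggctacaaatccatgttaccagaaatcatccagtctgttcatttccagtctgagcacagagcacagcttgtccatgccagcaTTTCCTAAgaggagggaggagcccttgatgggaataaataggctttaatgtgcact
Both hold 1 AGAACA match and at least 2 matches to the C/EBP-type motif. Of 8 members with an upstream window in the RefSeq table, all 8 held the C/EBP-type motif, against 36.8% of 32851 promoters searched over the same length on both strands. AGAACA occurred in 3 of the 8 (Orm2, Serpina3b and Serpina3n), against 16.1% of promoters, and TATAAA in 3 (Orm3, Orm2 and Serpina3b), against 12.4%. No window held the STAT motif TTCNNNGAA, against 7.02% of promoters, or an NF-kB consensus, against 0.356%. No match of one motif overlapped a match of another, and windows of copied genes share their ancestry and are not independent.

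The 9 genes that passed the filter were set beside markers of the cell types that visceral fat can hold. All 12 adipocyte markers fell in KO (limma adjusted p under 0.05), with log2 differences of -3.71 to -0.96 and a median of -1.79, against a median of -0.00 over all 14455 genes. Adipoq, which encodes the fat cell hormone adiponectin, had 29625, 18358, 31684 and 27402 normalised reads in KO fat, against 100179, 116993 and 126791 in WT fat (log2 difference -2.12, SE 0.24, adjusted p = 0.00101). The summed adipocyte markers were 307092 to 495125 in KO and 1012663 to 1250371 in WT. Orm3 at -4.86 and Serpina3b at -4.85 lay below the lowest adipocyte marker, Adrb3 at -3.71, and Orm1 and Serpina3n lay inside the range of the markers.

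All 12 macrophage markers rose, with log2 differences of 1.29 to 3.55, and their sum was 305787 to 429879 in KO and 56464 to 165508 in WT. Itgax, the CD11c integrin of macrophages and dendritic cells in fat, averaged 21485 ± 2448 normalised reads in KO (SD, n = 4) and 2783 ± 1784 in WT (SD, n = 3), a log2 difference of 3.13 (SE 0.35, limma adjusted p = 0.00105). Of 6 tested neutrophil markers 2 rose, Ltf and Csf3r, with calls lost without KO library 2 or 4 or WT column 3 or 4 and for Ltf also without KO library 3. Ltf passed the filter only through KO. S100a8, a calprotectin subunit gene of neutrophils, averaged 351 ± 125 in KO fat and 226 ± 91.6 in WT fat and did not pass (adjusted p = 0.169). Of the rest, 4 of 9 mesothelial markers fell, and 2 of 10 fibroblast markers rose and 1 fell, beside 16.8% higher and 17.4% lower of all genes tested. DESeq2 on whole reads called 4 neutrophil and 5 fibroblast markers higher, and 5 mesothelial markers and 1 fibroblast marker lower. Over all fat genes DESeq2 also called more, 2762 higher and 3070 lower, against 2430 and 2517 with limma. The part that cell make-up has in the values of the acute-phase genes was not tested.

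None of 10 hepatocyte markers was called by limma (0 at an unadjusted p under 0.05), edgeR or DESeq2, and their sum was 651 to 3527 in KO and 735 to 9204 in WT. Alb, the albumin gene and the leading liver marker, had 229.6, 1173, 350.5 and 2194 normalised reads in KO fat, against 723, 579 and 6343 in WT fat, and overlapped. Transcripts of epididymis and testis, which border the gonadal fat depot in males, summed to 2.16 to 12.1 in KO and 229 to 1982 in WT over 10 markers. Of these, 1 passed the filter and fell, the sperm protamine Prm2, which passed only through its WT libraries. Prm2 had at most 1.08 normalised reads in KO fat against 282, 92.0 and 25.8 in WT columns 1, 3 and 4. DESeq2, run without that filter, called 4 lower, Prm1, Prm2, Tnp1 and Tnp2, beside 3070 lower of all genes. The list was not uniform within WT, since Adam7, a gene of the epididymis, had at most 2.02 normalised reads in KO fat against 1.72, 0 and 1918 in WT columns 1, 3 and 4. Thus WT column 1 held the most Prm2 and the least Orm3 and Serpina3b, and WT column 4 the most Adam7 and Serpina3b. The part of these transcripts in the values of the 2 genes was not tested.

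**Figure D3:**
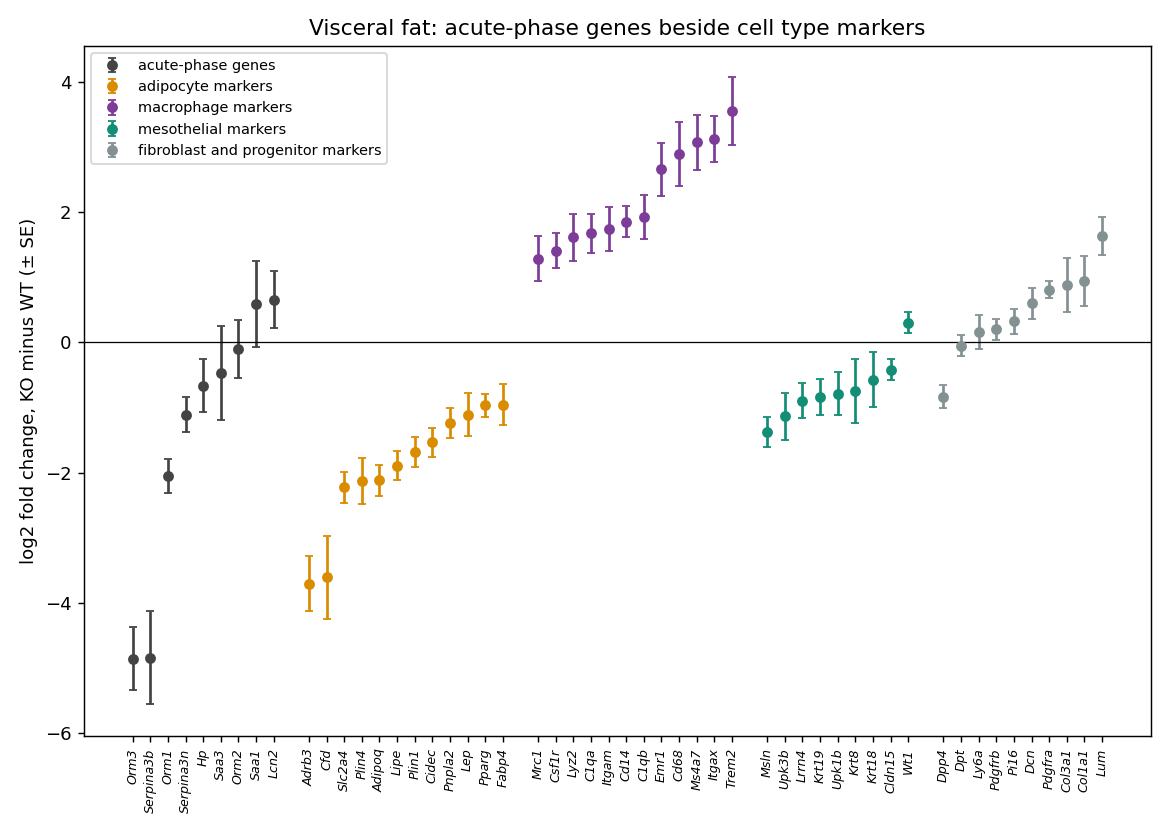
Log2 fold change in visceral fat (KO minus WT, log2(value + 1) scale, points with SE bars) of 9 acute-phase genes and of the tested markers of 4 cell types, each group sorted by value. Orm3 and Serpina3b at -4.86 and -4.85 lie below every marker shown, adipocyte markers all lie below 0 and macrophage markers all above 1.

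Within the WT group the genes split by which library was highest. Orm1, Orm2, Saa3, Hp and Serpina3n were highest in WT column 1, and all 5 were lowest in WT column 4. Serpina3b was highest in WT column 4, Orm3 in WT column 3, and both were lowest in WT column 1. The summed macrophage markers were also highest in WT column 1 and lowest in WT column 4. The summed adipocyte markers ran the other way, with 1012663 in WT column 1 and 1250371 in WT column 4. Yet the adipocyte marker Lep had 215101, 167642 and 95379 in WT columns 1, 3 and 4. What these orders within WT reflect was not tested. The 4 KO libraries were close together for Saa3 and Orm2, with a highest to lowest ratio of 1.36 for Saa3 in KO against 14.0 in WT, and of 1.36 for Orm2 in KO against 4.36 in WT.

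The genes whose profile over the 7 fat libraries was most like that of a member were found among 12720 genes with a mean of 50 or more, by the root mean square (RMS) difference of centred log2 values, a description over libraries that share their depth and condition. Serpina3n had the closest matches, Paqr9 at 0.0860, the acute-phase glycoprotein gene Lrg1 at 0.106 and the leptin gene Lep at 0.107. Orm1 was closest to Igfals at 0.152, which encodes a carrier subunit for insulin-like growth factors in blood. Hp was closest to Bcl2l10 at 0.142 and Orm2 to Tfpi2 at 0.160. The profiles of Orm3 and Serpina3b were farther from all others: Orm3 was closest to Adrb3 at 0.677, the beta-3 adrenergic receptor of fat cells, Retn at 0.709, the resistin gene, and Serpina3b at 0.715. Serpina3b in turn had Orm3 as its closest gene. Saa3 was closest to the membrane protease gene St14 at 0.404, and Lcn2 to Gadd45g at 0.359.

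Lrg1 had 5219, 4416, 7416 and 5609 normalised reads in KO fat, against 15246, 10151 and 8133 in WT fat, the same order of libraries within WT as Serpina3n. Retn had 4135, 1661, 3176 and 1928 in KO fat, against 20664, 38627 and 54996 in WT fat, and Adrb3 had 864, 822, 1336 and 1144 against 6467, 13249 and 27771. Igfals had 1087, 740.1, 1287 and 1224 in KO fat, against 5038, 4304 and 2859 in WT fat. None of these 4 genes overlapped between the groups, beside 22.1% of all genes tested that lay lower in KO without overlap. They were picked for profiles like those of members without overlap, so nothing is read from this or from the shared WT order.

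Other acute-phase proteins changed in part, all of those that passed being lower in KO. Of 32 listed, 27 were tested, 7 fell, none rose and 20 did not pass, beside 17.4% lower and 16.8% higher of all genes tested, with a median log2 difference of -0.42 against -0.00 over all genes tested. The falls numbered 3 without KO library 1 or 2 or WT column 3 and 4 without WT column 4. On whole reads edgeR called 7 lower and DESeq2 10, and neither called any higher. Both called Itih4 lower, which did not pass with limma. Over all fat genes edgeR called 2542 lower and DESeq2 3070, against 2517 with limma. Steap4, a metalloreductase of fat cells induced by inflammation, had 10807, 10088, 14055 and 9964 normalised reads in KO fat, against 37097, 25564 and 29255 in WT fat (log2 difference -1.45, SE 0.19, limma adjusted p = 0.00144). Lbp, which presents bacterial lipopolysaccharide to its receptors, averaged 10294 ± 2491 in KO (SD, n = 4) and 20647 ± 6649.8 in WT (SD, n = 3), with an adjusted p of 0.0237 in limma that reached 0.0816 when WT column 3 was left out and also missed the threshold without WT column 1 or KO library 2. Ceruloplasmin (Cp), the copper protein of plasma, had a log2 difference of -0.71 (SE 0.20, adjusted p = 0.0283), and it missed the threshold in 5 of 7 fits with a library left out, those without KO library 1, 2 or 4 or WT column 3 or 4. Fgl1, Serpina1d and Serpina3m were the other 3 that fell besides Serpina3c. Serpina1d had 7.73, 20.5, 7.26 and 52.4 normalised reads in KO fat, against 45.6, 71.4 and 170 in WT fat. Its groups thus overlapped, and edgeR on whole reads did not call it.

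In the Serpina3 cluster, Serpina3c and Serpina3m fell with limma, and the other listed genes did not pass or were not tested. Serpina3c had 2586, 1287, 3618 and 2794 normalised reads in KO fat, against 11203, 11190.3 and 11043 in WT fat (log2 difference -2.21, SE 0.30, limma adjusted p = 0.00175), with WT libraries almost equal. Serpina3m averaged 162 ± 73.2 in KO fat and 448 ± 176 in WT. Serpina3i averaged 25.8 ± 6.43 in KO fat and 53.8 ± 22.7 in WT and did not pass (limma adjusted p = 0.0556). DESeq2 on whole reads called Serpina3i lower, and also Serpina3j, which did not reach the filter. Serpina3j had 0 normalised reads in every KO fat library, against 2.58, 5.87 and 24.7 in WT columns 1, 3 and 4. Serpina3f, Serpina3g and Serpina3h had log2 differences of 0.41, 0.35 and 0.56 with overlapping groups and did not pass, although Serpina3h was called higher without WT column 1 (limma adjusted p = 0.0274). Their copies share short stretches of sequence, 6.90% of the 50-base stretches of Serpina3n and 2.92% of those of Serpina3b.

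Hpx, Saa4 and Mt2 did not pass. Hpx, which binds free haem, averaged 121 ± 45.2 in KO fat and 144 ± 166 in WT (log2 difference 0.42, SE 0.72, limma adjusted p = 0.687), and it was -0.24 with edgeR or DESeq2 on whole reads and called higher without WT column 4 (adjusted p = 0.0477). Saa4, the constitutive serum amyloid A, averaged 8.70 ± 5.53 in KO fat and 18.6 ± 11.6 in WT and did not pass (adjusted p = 0.288). Mt2, a metallothionein induced by zinc and glucocorticoids, averaged 2917 ± 678 in KO fat and 2685 ± 1263 in WT (adjusted p = 0.639).

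Of 30 genes of inducing cytokines, receptors and factors, 28 were tested, 7 rose, 2 fell and 19 did not pass, with a median log2 difference of 0.26, beside 16.8% higher and 17.4% lower of all genes tested. Il6 and Il1b were low and overlapped. Il6 had 9.93, 35.6, 9.08 and 6.05 normalised reads in KO fat, against 18.9, 10.8 and 4.12 in WT fat (log2 difference 0.29, SE 0.69, limma adjusted p = 0.774). Il1b averaged 46.7 ± 40.3 in KO fat and 39.1 ± 24.6 in WT (adjusted p = 0.916).

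Other cytokine genes rose. Osm, oncostatin M of the interleukin 6 family, had 75.1, 109, 58.1 and 72.6 normalised reads in KO fat, against 34.4, 27.4 and 19.6 in WT fat (log2 difference 1.5, SE 0.31, limma adjusted p = 0.00704). Tnf had 150.1, 121, 116 and 118 in KO fat, against 81.7, 56.7 and 18.6 in WT fat, with a log2 difference of 1.48 (SE 0.45, adjusted p = 0.0331). The call of Tnf was lost in 5 of 7 fits with a library left out, those without any single KO library and without WT column 3, with an adjusted p up to 0.0745, and with edgeR on whole reads (adjusted p = 0.0506). Il1rn, the interleukin 1 receptor antagonist, Il1rap, its receptor chain, Nfkb1, Nfkbiz and Il11ra1 were the other 5 that rose.

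Receptor and signalling genes were mixed. The oncostatin receptor gene Osmr averaged 3737 ± 705 in KO fat and 3773 ± 1590.1 in WT, and Stat3 averaged 7418 ± 781 in KO fat and 7307 ± 1945 in WT, with limma adjusted p of 0.896 and 0.86. Socs3, a feedback target of STAT3, averaged 833 ± 111 in KO fat and 626 ± 381 in WT and did not pass (log2 difference 0.56, SE 0.33, adjusted p = 0.212), but it was called higher without WT column 1 (log2 difference 1.03, adjusted p = 0.00285). Nfkbiz, a nuclear partner of NF-kB, had 704, 826, 1002 and 1082 in KO fat, against 554, 579 and 529 in WT fat (log2 difference 0.69, SE 0.16, adjusted p = 0.0131).

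The 3 C/EBP genes differed. Cebpa, needed for the mature fat cell, had 9157, 6737, 7262 and 6530.2 normalised reads in KO fat, against 10762, 13486 and 14760.3 in WT fat (log2 difference -0.81, SE 0.17, limma adjusted p = 0.00745). Cebpb averaged 351 ± 58.5 in KO fat and 269 ± 105 in WT (adjusted p = 0.245), and Cebpd 368 ± 32.8 in KO and 480.0 ± 76.1 in WT (adjusted p = 0.0932). Neither of these 2 passed. Lif, of the interleukin 6 family, was the other gene of this list that fell, and its call was lost in 6 of 7 fits with a library left out, all but that without KO library 3, and with no filter on low values. The rises in the list numbered 2 without WT column 3, 4 without KO library 2 or 4, and 10 without WT column 1.

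**Figure D4:**
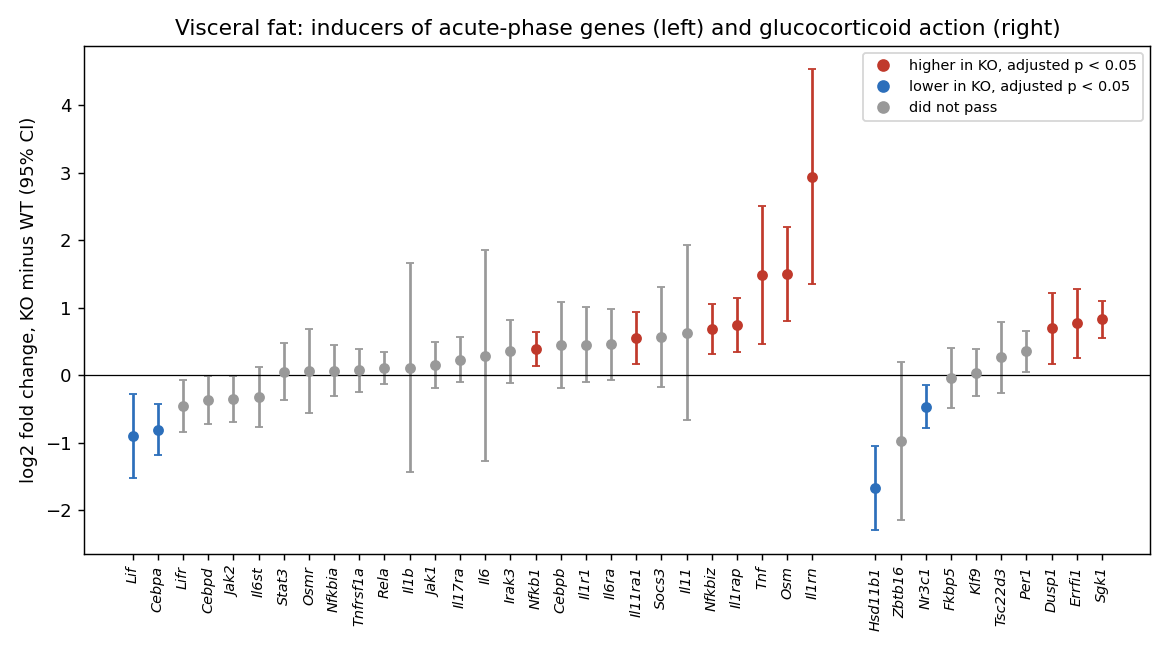
Log2 fold change in visceral fat (KO minus WT, points with 95% confidence intervals) of the tested inducing cytokines, receptors and factors on the left and of genes of glucocorticoid action on the right, each sorted by value. Red and blue mark genes called higher and lower in KO by limma at an adjusted p under 0.05, and grey those that did not pass, among them Il6 at 0.29 and Stat3 at 0.05.

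Of 10 genes of glucocorticoid action, 3 rose, 2 fell and 5 did not pass, beside 16.8% higher and 17.4% lower of all genes tested. Without KO library 2 or 4 or WT column 3, 1 rose and 1 fell. Hsd11b1, the enzyme that regenerates active glucocorticoid inside fat cells, had 1368, 662, 1217 and 938 normalised reads in KO fat, against 2594, 2946 and 4423 in WT fat (log2 difference -1.68, SE 0.27, limma adjusted p = 0.0029). The receptor gene Nr3c1 averaged 5592 ± 399.5 in KO fat and 7820.3 ± 1377 in WT (log2 difference -0.47, SE 0.14, adjusted p = 0.0308), a call lost in 5 of 7 fits with a library left out, those without KO library 1, 2 or 4 or WT column 3 or 4. Sgk1, a kinase gene that glucocorticoids induce, had 4906, 4233, 3782 and 3844 in KO fat, against 2256, 2404 and 2386 in WT fat (log2 difference 0.83, SE 0.12, adjusted p = 0.00203).

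The other glucocorticoid targets were not uniform. Fkbp5 averaged 3939.8 ± 371 in KO fat and 4168 ± 1205 in WT (limma adjusted p = 0.88), and Tsc22d3 averaged 9635 ± 2557 in KO fat and 7980.1 ± 1909 in WT (adjusted p = 0.405). Dusp1 and Errfi1 rose with log2 differences of 0.69 and 0.77 (adjusted p of 0.048 and 0.0293). Both lost the call in 5 of 7 fits, Dusp1 without KO library 1, 2 or 4 or WT column 3 or 4 (and with no filter), and Errfi1 without KO library 1, 2 or 4 or WT column 1 or 3.

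Of 18 genes for receptors, partners and protease targets of the acute-phase proteins, 16 were tested, 6 rose, 3 fell and 7 did not pass, beside 16.8% higher and 17.4% lower of all genes tested. The falls numbered 1 without KO library 2 or WT column 3 and 6 with DESeq2, which added Cd163, Scarb1 and Elane. Over all fat genes DESeq2 called 3070 lower, against 2517 with limma. On the haptoglobin side, Cd163, the macrophage receptor for haptoglobin bound to haemoglobin, had 1702, 2291, 2478 and 2668 normalised reads in KO fat, against 3579.5, 5310.0 and 2504 in WT fat. It did not pass (log2 difference -0.69, SE 0.25, limma adjusted p = 0.068), while all 12 macrophage markers rose. It was called lower with DESeq2 on whole reads (adjusted p = 0.0249) and without WT column 4 (limma adjusted p = 0.0169). Hmox1, which breaks down haem, had 15935, 14687, 9206 and 8109 in KO fat, against 5353, 3134 and 1853 in WT fat (log2 difference 1.87, SE 0.37, adjusted p = 0.00637).

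On the lipocalin side, Mmp9, a protease that forms a complex with lipocalin 2, had 123, 142, 65.4 and 107 normalised reads in KO fat, against 241, 279.8 and 314 in WT fat (log2 difference -1.39, SE 0.27, limma adjusted p = 0.00601). Slc22a17, a lipocalin 2 receptor, averaged 361 ± 25.1 in KO fat and 621 ± 167 in WT (log2 difference -0.75, SE 0.19, adjusted p = 0.0181), and the adjusted p was 0.0704 without WT column 3 and also above the threshold without KO library 2. Lrp2, the endocytic receptor megalin, fell by 1.39 on the log2 scale (SE 0.41, adjusted p = 0.0317) and lost the call in 5 of 7 fits, those without KO library 1, 2 or 4 or WT column 3 or 4.

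Among receptors for serum amyloid A and bacterial ligands, Tlr2 and Tlr4 rose and Fpr2 and Scarb1 did not pass. Tlr4 averaged 2961 ± 509.7 in KO fat and 1913 ± 579.9 in WT (log2 difference 0.66, SE 0.21, limma adjusted p = 0.0401) and lost the call without KO library 2 or 4 or WT column 3 or 4, with an adjusted p up to 0.138, and with edgeR on whole reads (adjusted p = 0.0518). Scarb1, a lipoprotein receptor that also binds serum amyloid A, had 5304, 4651, 5637 and 5098 normalised reads in KO fat, against 7156, 7225 and 5770.1 in WT fat, lower in every KO library (log2 difference -0.37, SE 0.13, limma adjusted p = 0.0514). Fpr2 averaged 25.4 ± 15.4 in KO fat and 22.9 ± 19.2 in WT (adjusted p = 0.802). The neutrophil protease genes differed from each other. Ctsg, cathepsin G, averaged 31.4 ± 24.3 normalised reads in KO fat and 1.30 ± 0.663 in WT fat (log2 difference 3.55, SE 0.63, limma adjusted p = 0.00417, and 1.70 to 4.61 under other settings), and passed the filter only through KO. Elane, neutrophil elastase, had 2.21, 2.16, 5.45 and 1.01 normalised reads in KO fat, against 9.46, 14.7 and 21.7 in WT fat, and did not reach the filter. Ctsl rose as well.

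In the E0771 tumours the acute-phase genes were low. Together they took 0.00175% to 0.00421% of the gene reads of KO-host tumours and 0.00290% to 0.00456% of those of WT-host tumours. By level per kilobase, Hp ranked 5857 of 20224 genes in KO-host tumours and 3958 in WT-host tumours, Orm1 7610 and 7271, and the other 8 lower. Of the 10 genes, 7 passed the filter on low counts and none was called by edgeR at an adjusted p under 0.05. The same test called 0.0% of 13109 genes higher and 0.0% lower, with 905 genes (6.9%) at an unadjusted p under 0.05, among them 2 of the 7. DESeq2 called 47 genes higher (0.371%) and 12 lower (0.0947%) of 12675 and none of the 10.

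Serpina3b went the other way in tumours than in fat. It had 16, 26 and 22 reads in tumours of KO hosts, against 3, 4 and 8 in tumours of WT hosts. Scaled by TMM library size, the means were 23.8 ± 9.85 in KO hosts and 4.74 ± 2.38 in WT hosts (SD, n = 3 each), and the groups did not overlap. The log2 difference was 2.27 (SE 0.63, 95% confidence interval 0.89 to 3.65), a fold of 4.83, with an edgeR adjusted p of 0.511 over all genes. The two-sided exact permutation p was 0.1, the smallest that 20 relabellings of 3 against 3 can give. These are few reads, and the 2 tissues were normalised apart, so the difference between the fat and tumour effects was not tested.

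Hp had 267, 520 and 347 reads in tumours of KO hosts, against 946, 966 and 605 in tumours of WT hosts. After TMM scaling these were 225, 663 and 389.5 in KO hosts and 932, 922 and 562 in WT hosts, so that KO library 2 lay above WT library 3. The log2 difference was -0.93 (SE 0.33, 95% confidence interval -1.64 to -0.22), with an edgeR adjusted p of 0.646 and an exact permutation p of 0.2. The direction was that of the fat means.

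Orm1 and Orm3, which were both lower in KO fat, were close in the tumours. Orm1 had 116, 87 and 132 reads in KO hosts, against 159, 139 and 124 in WT hosts, a log2 difference of -0.18 (SE 0.25, edgeR adjusted p = 0.91). Orm3 had 43, 32 and 37 reads in KO hosts, against 52, 55 and 55 in WT hosts, a log2 difference of -0.39 (SE 0.34, adjusted p = 0.855). After scaling, the Orm3 groups did not overlap, with 36.3 to 41.5 with KO hosts and 51.1 to 52.5 with WT hosts, an exact permutation p of 0.1 and the smallest possible. Of all tumour genes tested, 10.6% did not overlap between the groups (5.68% higher and 4.93% lower in KO hosts). Of the 7 acute-phase genes tested 2 did not, Serpina3b on the higher side and Orm3 on the lower side. The share of Orm3 in orosomucoid reads was 21.6% or more in all 6 tumours and 5.52% or less in all 7 fat libraries, tissues that also differ in sex-linked transcripts.

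Lcn2 varied most among the tumours. It had 17, 186 and 32 reads in KO hosts, against 64, 64 and 18 in WT hosts, a log2 difference of 1.01 (SE 0.82, edgeR adjusted p = 0.846) that became -0.92 without KO library 2. Neutrophil markers stood apart in the same library, S100a9 with 22.8, 1883 and 31.4 scaled reads in KO hosts, against 337, 299 and 103 in WT hosts, and S100a8 with 25.3, 903 and 49.4 in KO hosts, against 192, 152 and 79.0 in WT hosts. The neutrophil markers summed to between 886 and 4319 scaled reads with KO hosts and between 1354 and 1831 with WT hosts, and their part in the Lcn2 values was not tested. Saa3 had 77, 66 and 44 reads in KO hosts, against 78, 95 and 50 in WT hosts, a log2 difference of -0.11 (adjusted p = 0.96). Serpina3n had 73, 41 and 34 reads in KO hosts, against 57, 42 and 45 in WT hosts, a log2 difference of 0.14 (adjusted p = 0.95). For both the groups overlapped.

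Orm2, Saa1 and Saa2 had too few reads for a test. Orm2 had 0, 0 and 2 reads in KO hosts, against 3, 2 and 0 in WT hosts. Saa1 had 1 read in all 3 KO hosts together, against 0 in the WT hosts, and Saa2 had 4 in KO hosts, against 1 in WT hosts. A count of 0 allows up to 3 reads per library at this depth.

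**Figure D5:**
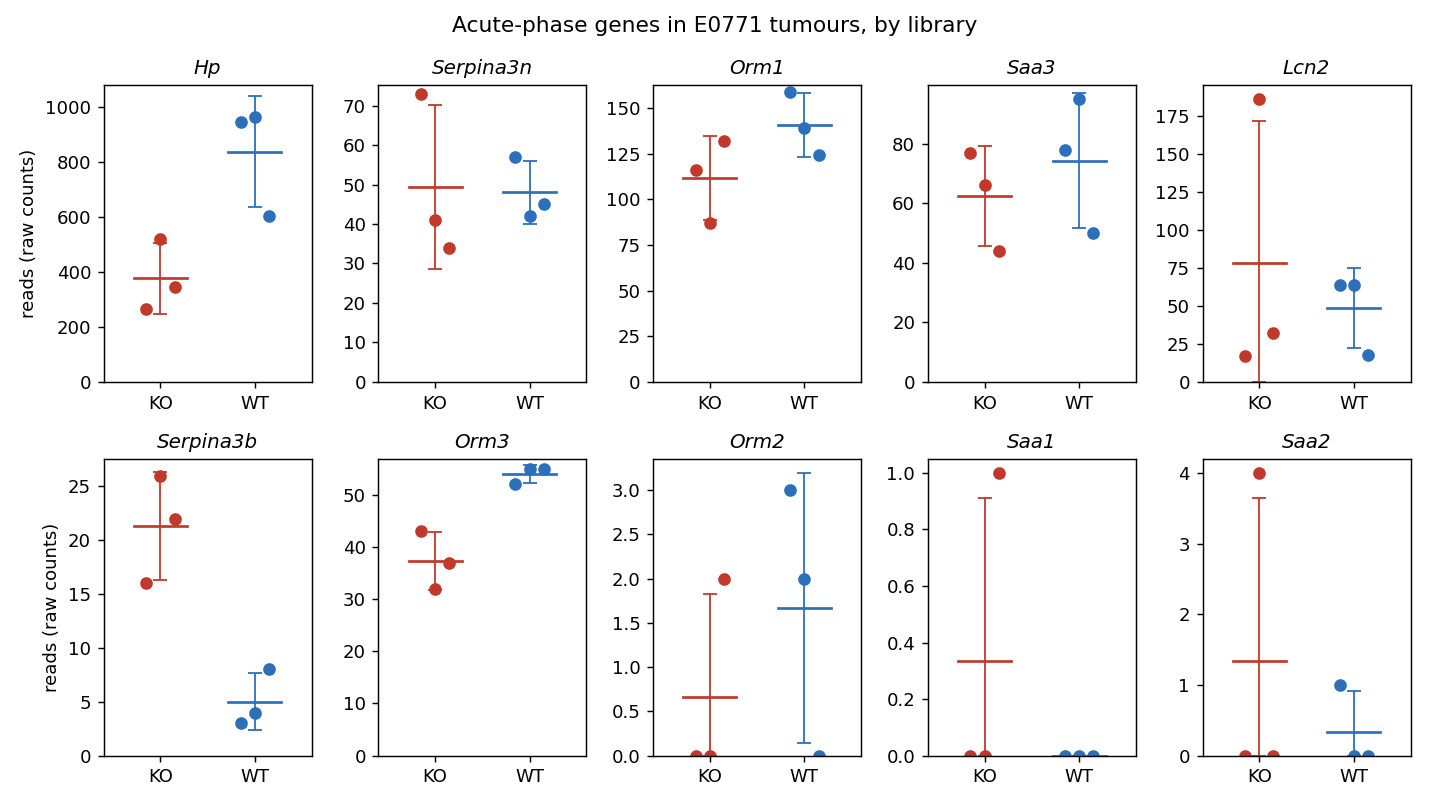
Raw read counts of the 10 acute-phase genes in E0771 tumours, one panel a gene, each with its own axis from 0. Points are libraries, with KO hosts (3) left of WT hosts (3), horizontal lines are means and bars are SDs (bars end at 0 where they would pass it); Serpina3b at 16 to 26 with KO hosts and 3 to 8 with WT hosts is the gene with higher counts in every KO-host tumour.

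No gene of the lists of other acute-phase proteins, inducers, glucocorticoid action or partners was called in tumours by edgeR, where 6.9% of all genes had an unadjusted p under 0.05. By that measure 2 of 29 inducers, 1 of 10 genes of glucocorticoid action and 4 of 13 partners did. Among the other acute-phase proteins 3 of 9 tested genes did, Serpina3g, Serpina3f and Cp, with log2 fold changes of 0.50, 0.64 and 0.74. DESeq2 called 3 genes of these lists, the inducer Cebpb and the glucocorticoid-induced Dusp1 lower and the partner Hmox1 higher in KO hosts. Cebpb had a mean of 1349 ± 90.3 scaled reads in KO hosts, against 2274 ± 811 in WT hosts (log2 fold change -0.75, SE 0.21, edgeR adjusted p = 0.511), and Il6 had a mean of 16.2 ± 10.5 in KO hosts, against 21.2 ± 8.09 in WT hosts (adjusted p = 0.916). Hmox1, which rose in KO fat, averaged 7959 ± 1974 scaled reads in KO-host tumours and 4592 ± 288 in WT-host tumours (log2 fold change 0.79, SE 0.17, adjusted p = 0.349).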

How the data were processed

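RNA was extracted with Trizol and sequenced as Illumina TruSeq stranded mRNA libraries, per the labels' protocols. The submitters' processing notes name TopHat, CASAVA, DESeq2 and mm10 without versions; the counting tool and strand setting are not given in the sources used here. For tumours the authors deposited raw read counts per gene symbol; 5 summary lines naming no gene (66.7% to 72.2% of entries) stayed out. In the fat table the authors deposited a signal, reads divided by 1 size factor per library: all 117220 values above 0 were whole multiples of 0.860 to 1.10 within 0.001 (100.0%), and edgeR on those reads called 2356 genes higher and 2542 lower.

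Groups came from the sample titles. Fat was fitted with limma 3.58.1 (trend) on log2(value + 1) over the 14455 genes that reached 10 in at least 3 libraries, so a fold change understates low genes. Tumours were fitted with edgeR 4.0.16 (TMM, filterByExpr, quasi-likelihood; 13109 genes) in R 4.3.3; DESeq2 1.42.0 was an alternative. Tests were two-sided, KO minus WT, with Benjamini-Hochberg adjustment over all genes and a threshold of 0.05; intervals are at 95%. Single tumour genes also had an exact permutation test. The pipelines were run on simulated counts with 200 genes changed 2-fold or 4-fold, at an assumed dispersion. In that run 9.22% of the tumour calls by DESeq2 were false, against 4.31% by edgeR. Only genes with many reads were changed, so the run does not cover genes with few reads. Named genes are the 10 members, up to 3 of smallest fat p in each direction of each list, 31 fixed by name and the 3 nearest profiles; other list genes are named after their values were seen. The values of 1 partner gene that the rule names are not reported here. The members and lists were chosen with earlier results of these data known. Levels per kilobase use the principal transcript of GENCODE M21. Promoters are RefSeq's, those of Hp and Orm1 are not shown, and the window of Lcn2 was searched only. Alternatives tried were pseudocounts, the filter, edgeR, DESeq2, quantile normalisation, a replicate block and leaving out each library. Libraries of a group were not duplicates (chi-square per degree of freedom 24.2 to 235).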

Additional observations from a re-analysis of the deposited data

Results flagged for a closer look

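Single libraries stood apart in 4 of 52 fat genes examined in the 4 KO libraries, where chance flags about 1 group in 20. Il6 was 35.6 normalised reads in KO library 2, against 9.93, 9.08 and 6.05 in the other KO libraries. Tnf was 150.1 in KO library 1, against 121, 116 and 118. Nr3c1 was 4996 in KO library 1, against 5791, 5841 and 5741. Serpina1e, an alpha-1 antitrypsin gene, was 179 in KO library 4, against 35.3, 28 and 19.1, and Alb was also highest in that library among the KO libraries, at 2194.

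Serpina3b was higher in every tumour of KO hosts, with a log2 fold change of 2.27, and lower in every fat library of KO hosts, with a log2 difference of -4.85. The difference between the tissues was not tested.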

How the results depend on the processing

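In fat the groups of Orm1, Orm3, Serpina3n and Serpina3b did not overlap, so their sign was fixed in all 7 fits with a library left out. In these fits Orm1 ran from -2.23 to -1.82 and Orm3 from -5.43 to -4.55. Serpina3n ran from -1.38 to -0.86 and Serpina3b from -5.20 to -4.13. Under every other setting all of them stayed negative, and Orm3 was -5.12 to -3.99 (the smallest size with a pseudocount of 10). Leaving out single fat libraries gave 1575 to 2691 genes called higher and 1490 to 2567 lower, the fewest without WT column 3. It gave 0 to 2 other acute-phase genes higher and 3 to 6 lower, 2 to 10 inducers higher and 1 to 3 lower, 1 to 3 genes of glucocorticoid action higher and 1 to 2 lower, and 4 to 6 partners higher and 1 to 4 lower. Of the inducers 1 was lower with no filter and 4 with quantile normalisation. With DESeq2 on whole reads 6 partners and 10 other acute-phase genes were lower, beside 3070 of all genes (2517 with limma). The cause was not tested. Log2 differences that changed sign in fat without a library ran from -0.25 to 0.37 for Osmr, -0.40 to 1.39 for Hpx, -0.27 to 0.16 for Fkbp5, -0.11 to 0.85 for Fpr2, -0.43 to 0.57 for Il1b, -0.13 to 0.25 for Stat3, -0.24 to 0.58 for Il6, -0.21 to 0.55 for Mt2, -1.66 to 0.061 for Alb and -0.20 to 0.076 for Cd274. With edgeR and DESeq2 on whole reads Osmr was -0.0089 and -0.014, and Hpx -0.24 in each.

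In tumours DESeq2 called 47 genes higher and 12 lower and edgeR without a filter 21 and 1, against 0 each; leaving out single libraries gave 0 to 10 higher and 0 to 11 lower, and no member was called in any of these. The log2 fold changes ran from -0.035 to 0.31 for Serpina3n, -0.92 to 1.52 for Lcn2 and -0.34 to 0.10 for Saa3. A replicate block in the tumours left 0 genes called higher and 0 lower, with 2.29 for Serpina3b and -1.0 for Hp. Same-numbered tumours did not deviate together (correlations -0.229, 0.0118 and -0.220), and the main fit used no pairing. With so few libraries a group these correlations cannot settle whether the numbers pair the samples. No paired analysis was possible in fat because the WT columns carry no replicate number of the labels.

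Counts of at most 16 reads a library, as for Saa1 and Saa2, limit any comparison, and 3 or 4 libraries a group limit the precision of all.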

Other observations

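All 7 fat libraries carried Y-linked transcripts, with 3612 to 4682 normalised reads of Ddx3y in KO and 5061 to 6067 in WT, and 1.10 to 9.08 of Xist in KO and 2.58 to 51.6 in WT. The tumours carried Xist, with 1423 to 2846 reads with KO hosts and 933 to 1649 with WT hosts, and at most 8 reads of Ddx3y. Levels in fat and in tumours therefore come from tissues of different sex as read by these transcripts, and were not compared with a test.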
